A study of Mus musculus with 18 samples.

Results

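Chemokine ligand genes were followed in macrophages that carried either wild-type (WT) PPARg, a lipid-sensing nuclear receptor, or its T166A form, in which alanine replaces a threonine that can be phosphorylated. The genes were chosen by symbol: Ccl or Cxcl followed by a number, and the outlying names Cx3cl1, Xcl1, Pf4 and Ppbp. Of 26149 genes in both count tables, 43 met this rule, of which 40 are annotated as protein coding. Cxcl11 is listed by RefSeq as a transcribed pseudogene, and Ccl19-ps1 and Ccl19-ps2 are pseudogenes by name. A further 3 annotated symbols that fit the rule (Ccl16-ps, Ccl19-ps3 and Ccl21c) had no row and were not analysed here.

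Bone marrow-derived macrophages (BMDM) came from the leg bones of C57BL/6J mice (WT) or PPARg T166A mice and were grown for 7 days with the growth factor M-CSF at 50 ng/ml, with 3 libraries per genotype. In each genotype, replicates 1 and 2 carried the label of batch B1 and replicate 3 that of batch B2. The wound libraries, 6 per genotype and without a batch label, came from mice of the same 2 genotypes at 6 days post injury (dpi): dorsal skin was digested with DNase I, hyaluronidase and collagenase IV, and the cells that bound beads against F4/80, a macrophage surface protein, were kept. The labels give no age, do not say whether T166A was the only allele present, and do not state that replicates were separate animals or cultures. A p-value here is therefore about the spread among these libraries, which may be technical. RNA extraction is described for in vitro adipocytes, while every label names macrophages.

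BMDM libraries held 40072513 to 44152639 gene counts and wound libraries 29357354 to 38774475. These gene counts take 1 transcript row per gene, the one with the highest summed CPM. With all matched rows summed, totals were 2.036 times as high in BMDM and 2.042 times in the wound fraction. Levels are CPM, a gene's share of its library's gene counts on the usual depth-scaled unit. They are given as mean ± SD with n = 3 per genotype in BMDM and n = 6 in the wound fraction. The macrophage gene Lyz2 was present at 20170 to 36180 CPM in BMDM and 4157 to 5555 CPM in the wound fraction, and the adipocyte gene Adipoq was at 0 in every BMDM library. The wound libraries also held transcripts of other cells, such as the fibroblast collagen gene Col3a1 at 3859 CPM in WT. In bulk RNA, fewer cells of a type and less RNA per cell cannot be told apart. Libraries stood apart in both sources: WT replicate 1 among BMDM, with high inflammatory transcripts; T166A replicate 3 among BMDM, with 251 CPM of the fibroblast gene Col1a1 against at most 15.0 in the other 5; and WT replicate 2 and T166A replicate 3 in the wound fraction, which lay away from the rest of their genotype for several chemokines.

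Chemokines are small secreted proteins that direct leukocytes along concentration gradients by binding G protein-coupled receptors. They are classed as CC, CXC, C or CX3C by the spacing of their first cysteines. In a skin wound, CXC ligands of the receptor CXCR2 bring in neutrophils and CC ligands of CCR2 bring in monocytes, and macrophages both make and answer to such signals. Many of the genes lie side by side in clusters. Of the 43 genes here, 12 were on chromosome 11 and 13 on chromosome 5.

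The promoters of the CXCR2 ligands Cxcl1, Cxcl2 and Cxcl3 are shown because these abundant wound transcripts share a run of promoter bases and yet did not share a direction between genotypes (values further on). That of Cxcl10, an interferon-induced ligand that lacks this exact run, is given beside them. Each is the 250 bases that end at the RefSeq start site in GRCm38.p6, read along the gene's strand: Cxcl1 from chr5:90890995-90891244 (plus), Cxcl2 from chr5:90903649-90903898 (plus), Cxcl3 from chr5:90785851-90786100 (plus) and Cxcl10 from chr5:92348890-92349139 (minus). Capitals mark matches on either strand to GGGAATTTCCC, the longest run common to the first 3, to GAAANNGAA, a short form of the interferon-stimulated response element, and to TATAAA.
Cxcl1: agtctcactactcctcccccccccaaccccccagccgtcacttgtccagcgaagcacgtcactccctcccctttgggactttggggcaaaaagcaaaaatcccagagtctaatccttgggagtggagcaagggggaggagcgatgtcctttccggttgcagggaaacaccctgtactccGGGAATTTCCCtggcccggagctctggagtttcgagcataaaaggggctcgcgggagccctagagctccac
Cxcl2: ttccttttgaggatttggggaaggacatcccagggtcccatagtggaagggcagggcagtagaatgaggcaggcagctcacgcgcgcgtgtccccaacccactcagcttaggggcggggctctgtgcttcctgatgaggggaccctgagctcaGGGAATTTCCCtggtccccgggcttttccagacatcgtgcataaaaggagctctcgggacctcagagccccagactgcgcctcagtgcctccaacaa
Cxcl3: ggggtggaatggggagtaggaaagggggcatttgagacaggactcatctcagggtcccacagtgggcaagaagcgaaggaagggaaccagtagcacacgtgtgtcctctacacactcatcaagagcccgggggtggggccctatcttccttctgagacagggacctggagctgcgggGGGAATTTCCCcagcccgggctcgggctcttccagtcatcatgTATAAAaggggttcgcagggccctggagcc
Cxcl10: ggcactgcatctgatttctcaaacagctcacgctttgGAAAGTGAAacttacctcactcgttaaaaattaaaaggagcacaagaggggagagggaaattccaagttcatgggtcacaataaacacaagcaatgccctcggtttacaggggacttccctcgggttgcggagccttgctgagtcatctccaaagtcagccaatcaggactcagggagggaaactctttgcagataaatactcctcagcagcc

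The run of 11 bases GGGAATTTCCC, which has the form of an NF-kB site, began 71 bases before the start of Cxcl1, 97 before Cxcl2 and 73 before Cxcl3. It was in 14 of 32851 RefSeq promoter entries of 300 bases, or 0.0426%, and in no other of the 30 chemokine genes that the promoter table held. GAAANNGAA was in 6 of these 30 genes (Ccl1, Ccl3, Ccl19, Cxcl9, Cxcl10 and Cxcl14) and in 8.56% of all promoter entries, and TATAAA in 11 genes and 13.6%. The motifs searched did not overlap each other in the promoters shown. Only this exact run of 11 bases was searched. Other forms of NF-kB site, which differ from it in some bases, were not marked and may lie in any promoter, that of Cxcl10 included. A match describes letters in this window and was not tested as a binding site.

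A gene was called expressed in a source when it passed the filter on low counts there and averaged at least 1 CPM in either genotype. By this rule 21 chemokine ligand genes were expressed in BMDM and 29 in the wound fraction. All 21 of the BMDM genes were among the 29, and 8 were expressed in the wound fraction alone: Ccl11, Ccl24, Ccl25, Cxcl9, Cxcl11, Cxcl12, Cxcl13 and Cxcl15. Some BMDM genes met the rule through 1 library: without WT replicate 1, Cxcl5 no longer met it and Ccl25 did, and without T166A replicate 3, Cx3cl1 (2.73 CPM there) no longer met it and Ccl24 did. Each of these counts was again 21. Without T166A replicate 1, Ccl12 no longer met the rule and the count was 20. At a threshold of 5 CPM the numbers were 15 in BMDM and 24 in the wound fraction, and with transcripts summed per gene they were 19 and 27. Of the 15 at 5 CPM, Cxcl1, Cxcl2 and Cxcl3 met the threshold only through WT replicate 1. In WT replicates 2 and 3, Cxcl1 was at 0.515 and 0.824 CPM, Cxcl2 at 2.65 and 5.44 CPM, and Cxcl3 at 0.187 and 3.24 CPM. The 14 genes expressed in neither source were the lymphoid tissue ligands Ccl19, Ccl21a, Ccl21b and Ccl21d with the pseudogenes Ccl19-ps1 and Ccl19-ps2, as well as Ccl1, Ccl17, Ccl20, Ccl26, Ccl27b, Ccl28, Cxcl17 and Xcl1. In BMDM, 12 genes had 0 counts in all 6 libraries, while in the wound fraction each of the 43 had at least 1 count in some library. Reads of near-identical copies (Ccl21a, Ccl21b and Ccl21d, Ccl27a and Ccl27b, and the Ccl19 genes) could have been divided between them, since the counting rule for them was not given in the sources used here.

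**Figure D1:**
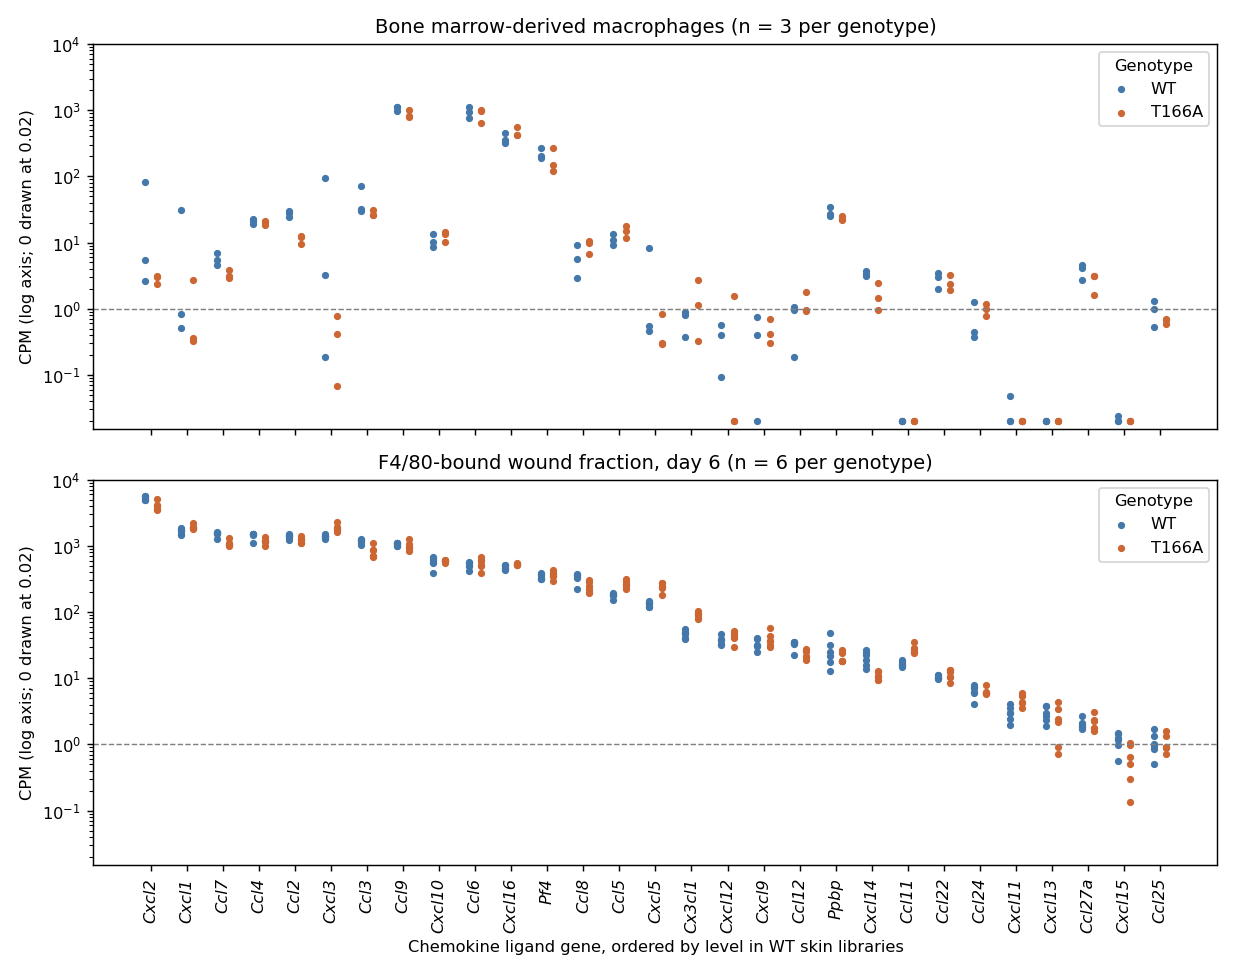
Level of each chemokine ligand gene expressed in the wound fraction, in CPM on a log axis with 0 drawn at 0.02 CPM, in BMDM (upper panel, 3 libraries per genotype) and in the wound fraction (lower panel, 6 per genotype). Each point is a library, and the dashed line marks 1 CPM. In BMDM, Ccl9, Ccl6, Cxcl16 and Pf4 lie above the rest, with the lowest Pf4 library at 120 CPM and the highest Cxcl3 library at 94.1 CPM. In the wound fraction Cxcl2 lies highest, at 4946 to 5733 CPM in WT.

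In BMDM, chemokine transcripts were made up of a few genes. Ccl9, a CCR1 ligand, had 978, 1124 and 1130 CPM in WT replicates 1, 2 and 3 against 777, 824 and 1013 CPM in the T166A replicates. Ccl6, a related CCR1 ligand, was at 951, 1126 and 762 CPM in WT, against 982, 1017 and 632 CPM in T166A. The genotypes overlapped for both of these CC ligands. Cxcl16, a membrane-bound ligand that also serves as a scavenger receptor, was at 322, 351 and 450 CPM in WT, against 415, 415 and 552 CPM in T166A. Pf4, platelet factor 4, which macrophages also transcribe, was at 188, 206 and 269 CPM in WT, against 120, 148 and 268 CPM in T166A. For Pf4 replicate 3, from batch B2, was the highest library in each genotype.

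Scaled by transcript length, WT BMDM held 657 ± 127 CPM per kb of Ccl6, 376 ± 73.0 of Pf4, 358 ± 28.6 of Ccl9 and 225 ± 40.2 of Cxcl16. Pf4 and Ccl9 did not differ beyond their spread. Ccl3, next in order, was at 58.6 ± 31.1 CPM per kb. All 43 genes together took 0.277 to 0.297% of gene counts in WT BMDM and 0.243 to 0.262% in T166A.

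The wound fraction held a different set. The 43 genes took 1.67 to 1.86% of gene counts in WT and 1.46 to 1.92% in T166A wound libraries. Cxcl2, a CXCR2 ligand for neutrophils, led with 4806 ± 319 CPM per kb in WT. Below it came Ccl4 (2166 ± 249 CPM per kb), Ccl7 (1901 ± 148), Cxcl1 (1759 ± 166.1), Ccl2 (1715 ± 104), Ccl3 (1545 ± 116) and Cxcl3 (1370 ± 81.3). Neighbours in this order, from Ccl4 to Cxcl3, lay closer together than the sum of their SDs, while Cxcl2 stood clear of Ccl4. Within libraries, Ccl4 was above Ccl7 and Ccl2 above Ccl3 in every WT wound library. The order of the other neighbours from Ccl4 to Cxcl3 varied between libraries.

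Between the sources, 25 of 32 tested chemokine genes were higher and 2 lower in WT wound libraries than in WT BMDM, a called share of 84.4% against 83.1% of all 16586 genes tested (edgeR's quasi-likelihood F test, adjusted p under 0.05 after Benjamini-Hochberg, used for calls throughout). The share called was thus near the background, although the direction was mostly upward, with 47.6% of all genes higher and 35.6% lower. Of these 32 genes, 7 passed the low-count filter only with the wound libraries included, and 5 of them (Ccl11, Ccl20, Cxcl11, Cxcl13 and Cxcl15) were among the 25 called higher. Of the 25 genes that passed it in BMDM as well, 20 were higher and 2 lower. These counts are a description. Without BMDM WT replicate 3 the count higher was 16, in a fit whose BMDM batch difference came from the T166A libraries alone. The source cannot be told apart from preparation and from the other cells of the wound fraction.

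Monocyte and neutrophil attractants were among the transcripts with a large source difference. Ccl7, a CCR2 ligand, was at 4.64 to 6.96 CPM in WT BMDM and 1287 to 1606 CPM in WT wound libraries (log2 difference 7.98, SE 0.18, edgeR adjusted p = 4.64e-19). Ccl2, the main monocyte attractant through CCR2, was at 24.1 to 30.2 CPM and 1242 to 1486 CPM (5.62, SE 0.14, edgeR adjusted p = 2.35e-18). Ccl4, macrophage inflammatory protein 1 beta, was at 19.0 to 23.0 CPM and 1097 to 1523 CPM (6.04, SE 0.15, edgeR adjusted p = 3.5e-18). None of these ranges overlapped between the sources. The interferon-induced CXCR3 ligand Cxcl10 was at 8.43 to 13.6 CPM in WT BMDM and 391 to 679 CPM in the wound fraction (5.64, SE 0.19, edgeR adjusted p = 9.45e-16). Ccl11, eotaxin, which draws eosinophils through CCR3, had 0 counts in all BMDM libraries and was at least 689-fold higher in WT wound libraries, against a floor of 3 counts over the WT BMDM libraries. Cxcl13, a B cell attractant, was at least 121-fold higher by the same floor. The 2 genes that were lower in the wound fraction were Ccl6 (log2 difference -0.83, SE 0.14, edgeR adjusted p = 1.73e-05) and Ccl27a, a skin-homing T cell attractant (-0.97, SE 0.27, edgeR adjusted p = 0.0024). Ccl9, Ccl17, Ccl25, Ccl28 and Ppbp did not pass.

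In the wound fraction, the T166A form went with lower transcripts of monocyte attractants and of Cxcl2, and with higher transcripts of Cx3cl1, Cxcl5, Ccl11, Ccl5 and Cxcl3. Of 30 chemokine ligand genes tested, 7 were higher and 8 lower in T166A, so that 50% were called, against 25.9% of all 15473 genes tested (12.7% higher and 13.2% lower). Abundant genes were called more often in general: among genes averaging at least 100 CPM, 45.7% of all and 9 of 15 chemokine genes (60%) passed. The median log2 fold change of the 30 genes was -0.03 against 0.01 over all genes, and the median absolute log2 fold change was 0.38 against 0.18.

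**Figure D2:**
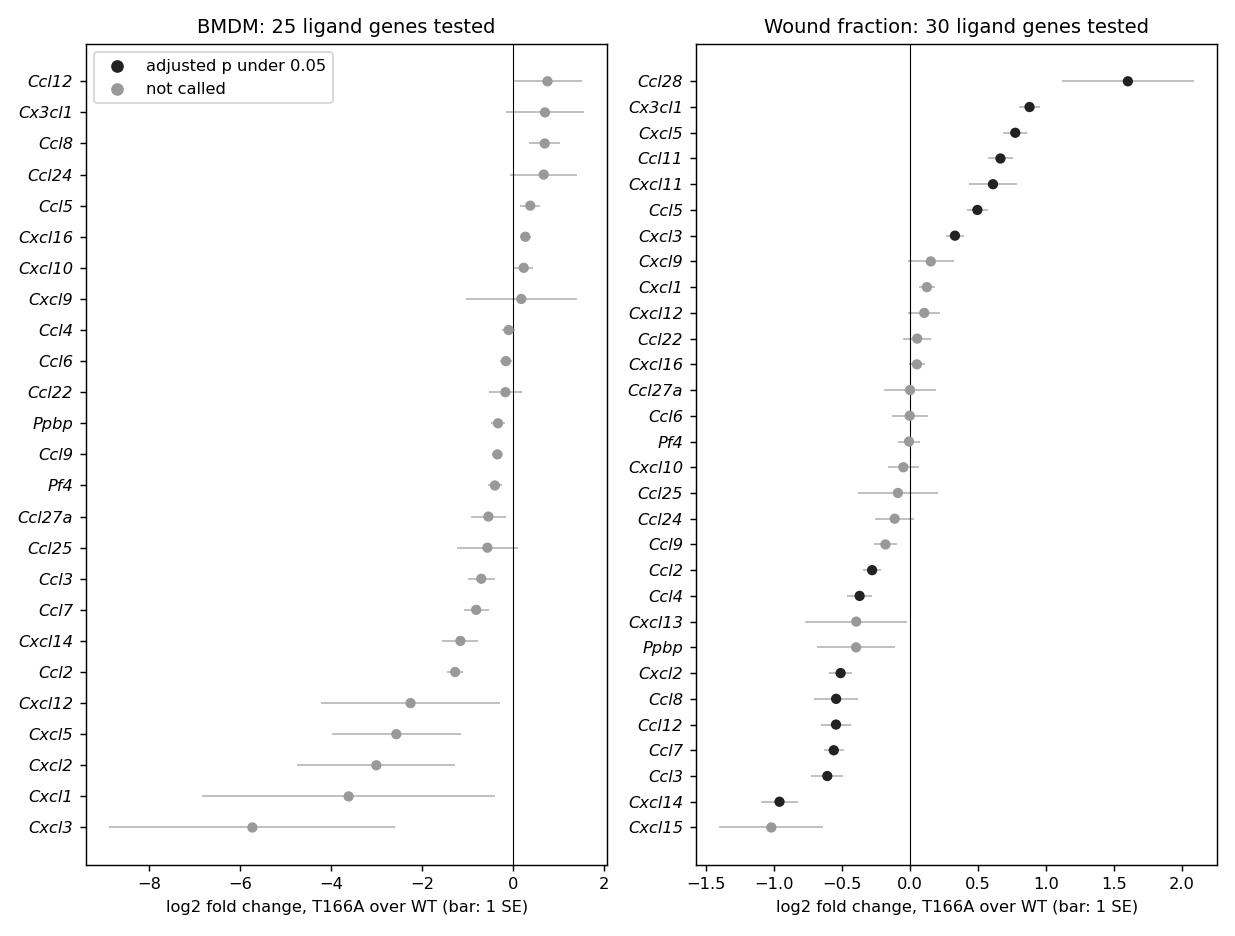
Log2 fold change, T166A over WT, of every chemokine ligand gene tested in BMDM (left, 25 genes) and in the wound fraction (right, 30 genes), with bars of 1 SE and black points for an adjusted p under 0.05. In the wound fraction 7 genes lie to the right and 8 to the left of 0 in black, while in BMDM 0 are black and Cxcl1, Cxcl2, Cxcl3 and Cxcl5 have wide bars.

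All 4 genes grouped here as monocyte-recruiting CCR2 ligands (Ccl2, Ccl7, Ccl8 and Ccl12) were lower in T166A wound libraries. The grouping was set by hand, and receptor use was not measured. Gene spans here and further on are those of RefSeq in GRCm38.p6. Ccl2 (chromosome 11, 82035577 to 82037452) ranged from 1242 to 1486 CPM in WT (median 1420) and from 1110 to 1412 CPM in T166A (median 1195). The groups overlapped, and the fall was the smallest of the 4 in log2 terms. It was 17.7% lower on the fitted scale (log2 fold change -0.28, SE 0.07, edgeR adjusted p = 0.00269).

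Ccl7 (chromosome 11, 82045712 to 82047525) ranged from 1287 to 1606 CPM in WT (median 1564) and from 994 to 1327 CPM in T166A (median 1051). Only the lowest WT library, replicate 2, and the highest T166A library, replicate 3, crossed. Its log2 fold change was -0.56 (SE 0.07, edgeR adjusted p = 1.04e-05). It was also called lower without WT replicate 2 (-0.61, edgeR adjusted p = 2.98e-07) and without T166A replicate 3 (-0.63, 1.82e-07).

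Ccl12 (chromosome 11, 82101845 to 82103399), a mouse CCR2 ligand, ranged from 22.8 to 35.6 CPM in WT (median 33.8) and from 18.9 to 27.6 CPM in T166A (median 23.8). WT replicate 2 was the 1 WT library within the T166A range. The log2 fold change was -0.55 (SE 0.11, edgeR adjusted p = 0.00173). Ccl8 (chromosome 11, 82115185 to 82116799), which binds several CC receptors, ranged from 222 to 379 CPM in WT (median 349) and from 192 to 309 CPM in T166A (median 235). Again WT replicate 2 was the lowest WT library. The log2 fold change of Ccl8 was -0.55 (SE 0.16, edgeR adjusted p = 0.0287), and leaving out any of 7 single libraries took its adjusted p above 0.05, up to 0.0642.

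The remaining inflammatory CC ligands Ccl3, Ccl4, Ccl5, Ccl6 and Ccl9 did not move together. Ccl3 (chromosome 11, 83647843 to 83649378), macrophage inflammatory protein 1 alpha, ranged from 1041 to 1283 CPM in WT (median 1203) and from 678 to 1117 CPM in T166A (median 785). All T166A libraries but replicate 3 lay below every WT library. Ccl3 fell by 0.61 on the log2 scale (SE 0.12, edgeR adjusted p = 0.002). Ccl4 (chromosome 11, 83648624 to 83664683), its neighbour, ranged from 1097 to 1523 CPM in WT (median 1493) and from 1008 to 1375 CPM in T166A (median 1166). WT replicate 2 lay within the T166A range and the other 5 WT libraries above it. Ccl4 fell by 0.37 (SE 0.09, edgeR adjusted p = 0.00541). The annotated spans of Ccl3 and Ccl4 overlap, and use of strand in counting was not given in the sources used here.

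Ccl5 (chromosome 11, 83525778 to 83530518), a T cell and monocyte attractant also called RANTES, went the other way. It ranged from 150.5 to 193 CPM in WT (median 181) and from 226 to 321 CPM in T166A (median 256.5). Every T166A library was above every WT library. Ccl5 rose by 0.50 on the log2 scale (SE 0.08, edgeR adjusted p = 0.000146). Ccl9 and Ccl6, the leading genes of BMDM, were at 1065 ± 60.5 and 517 ± 58.7 CPM in WT wound libraries and 997 ± 146 and 548 ± 98.8 CPM in T166A, and neither passed (edgeR adjusted p = 0.128 and 0.99).

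Among the 6 CXCR2 ligands, which act on neutrophils, 2 were higher and 1 was lower. Cxcl2 (chromosome 5, 90903899 to 90905938) ranged from 4946 to 5733 CPM in WT (median 5324) and from 3439 to 5099 CPM in T166A (median 3777). The highest T166A library, replicate 3, reached into the WT range. Cxcl2 fell by 0.51 on the log2 scale (SE 0.08, edgeR adjusted p = 0.000111). Cxcl3 (chromosome 5, 90786101 to 90788093) ranged from 1290 to 1523 CPM in WT (median 1393) and from 1619 to 2259 CPM in T166A (median 1812). The genotypes did not overlap. Cxcl3 rose by 0.33 (SE 0.07, edgeR adjusted p = 0.000873).

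Cxcl5 (chromosome 5, 90759298 to 90761625) ranged from 119 to 147 CPM in WT (median 135) and from 183 to 273 CPM in T166A (median 242). Here too every T166A library was above every WT library. Cxcl5 rose by 0.77 (SE 0.09, edgeR adjusted p = 1.04e-05). Cxcl1 (chromosome 5, 90891245 to 90893121), the second most abundant chemokine transcript of the fraction in CPM, ranged from 1448 to 1876 CPM in WT (median 1704) and from 1815 to 2202 CPM in T166A (median 1896). The libraries overlapped, and it did not pass (log2 fold change 0.12, SE 0.06, edgeR adjusted p = 0.149), although it did with library totals in place of TMM scaling (0.21, edgeR adjusted p = 0.0122). The ratio of Cxcl2 to Cxcl3, which no scaling changes, was 3.49 to 4.04 in WT wound libraries (median 3.84) and 1.92 to 2.32 in T166A (median 2.18). This ratio was formed after the values were seen and is given as a description. Ppbp and Cxcl15 did not pass (edgeR adjusted p = 0.356 and 0.0514).

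**Figure D3:**
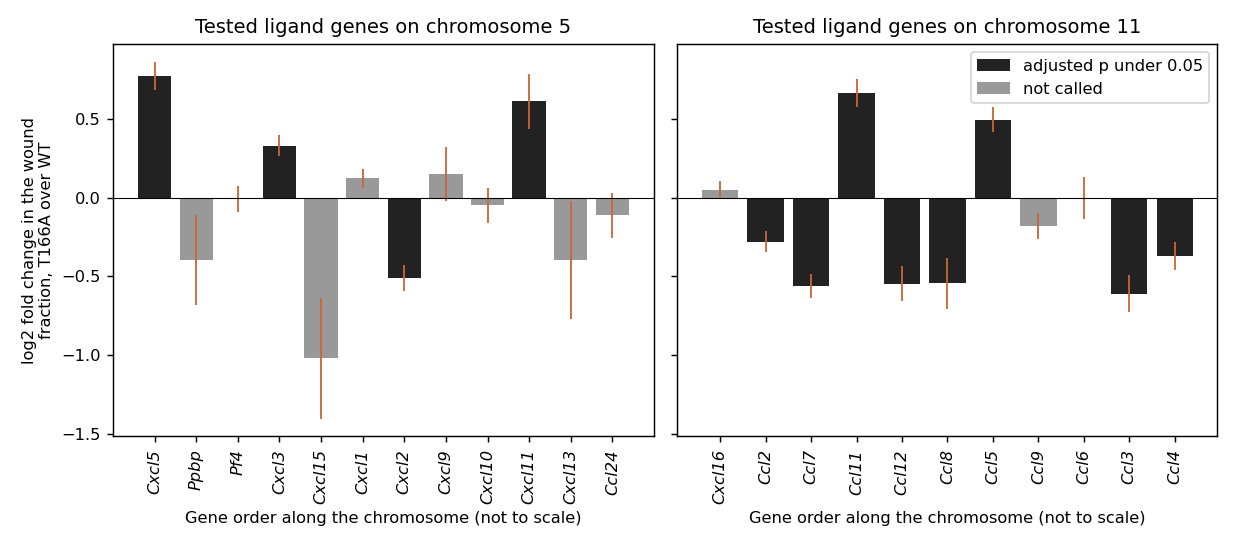
Log2 fold change in the wound fraction, T166A over WT (bars with 1 SE), of the tested chemokine ligand genes of chromosome 5 (12 genes) and chromosome 11 (11 genes), placed in their order along the chromosome without a distance scale. On chromosome 11 the neighbours Ccl2 and Ccl7 are lower, Ccl11 is higher and Ccl12 and Ccl8 are lower again.

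Some neighbouring genes thus differed in direction. Of 11 tested genes on chromosome 11, 6 were lower and 2 higher, and of 12 on chromosome 5, 1 was lower and 3 were higher. Over all genes tested, 13.2% were lower and 12.7% higher. These counts are by chromosome and take in genes far from the rest, Cxcl16 on chromosome 11 and Ccl24 on chromosome 5. Ccl11 (chromosome 11, 82057832 to 82062955), which sits between Ccl7 and Ccl12, ranged from 15.0 to 18.6 CPM in WT (median 16.1) and from 23.8 to 35.9 CPM in T166A (median 26.8). The groups did not overlap, and T166A replicate 3 was the highest. Ccl11 rose by 0.66 (SE 0.09, edgeR adjusted p = 8.53e-06). The other eotaxin tested, Ccl24, averaged 6.44 ± 1.39 CPM in WT against 6.33 ± 0.758 CPM in T166A and did not pass (edgeR adjusted p = 0.603).

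The membrane-anchored ligands were Cx3cl1 and Cxcl16. Cx3cl1, or fractalkine (chromosome 8, 94772180 to 94782427), which endothelial and other non-immune cells display to cells with CX3CR1, had the smallest adjusted p of all chemokine ligand genes. It ranged from 38.7 to 55.5 CPM in WT (median 47.7) and from 78.9 to 103 CPM in T166A (median 91.9). The groups were well apart. Cx3cl1 rose by 0.88 on the log2 scale, or 1.84-fold (SE 0.08, edgeR adjusted p = 5.83e-08). Cxcl16 averaged 481 ± 36.8 CPM in WT against 529 ± 17.2 CPM in T166A and did not pass (edgeR adjusted p = 0.562).

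After genotype means were removed, the genes whose log2 CPM followed Cx3cl1 most closely over the 12 wound libraries were Sox4 (Pearson r 0.96), Dmbt1 (0.96), Zfp507 (0.93), Shroom4 (0.93) and Bnc1 (0.92). These values are the highest of all tested genes, come from libraries that share depth and cell mixture, and are a description.

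Cxcl14 (chromosome 13, 56288643 to 56296811), a ligand made by epithelia and stroma among other cells, was the gene with the largest fall that passed. It ranged from 13.9 to 26.4 CPM in WT (median 20.7) and from 9.42 to 13.0 CPM in T166A (median 10.7). The groups did not overlap. Cxcl14 fell by 0.96 (SE 0.14, edgeR adjusted p = 5.76e-05). It was the 1 tested chemokine gene with every T166A wound library below every WT library, against 4.08% of all genes tested, while 5 genes (Cx3cl1, Cxcl5, Ccl11, Ccl5 and Cxcl3) had every T166A library above, against 8.83%.

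Among low transcripts, Cxcl11, an interferon-induced CXCR3 ligand in other strains, rose from 2.997 ± 0.777 to 4.85 ± 0.907 CPM (log2 fold change 0.61, edgeR adjusted p = 0.0119). Ccl28, a mucosal CCR10 ligand that stayed under the threshold for expression in the group means, rose from 0.228 ± 0.158 to 0.738 ± 0.255 CPM (1.60, SE 0.49, edgeR adjusted p = 0.0164). The more abundant CXCR3 ligands did not pass: Cxcl10 averaged 575 ± 103 CPM in WT against 591 ± 16.9 CPM in T166A (edgeR adjusted p = 0.79), and Cxcl9 at 33.2 ± 6.13 and 39.2 ± 9.91 CPM (0.567). Pf4, Cxcl12, Cxcl13, Ccl22, Ccl25 and Ccl27a did not pass either.

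**Figure D4:**
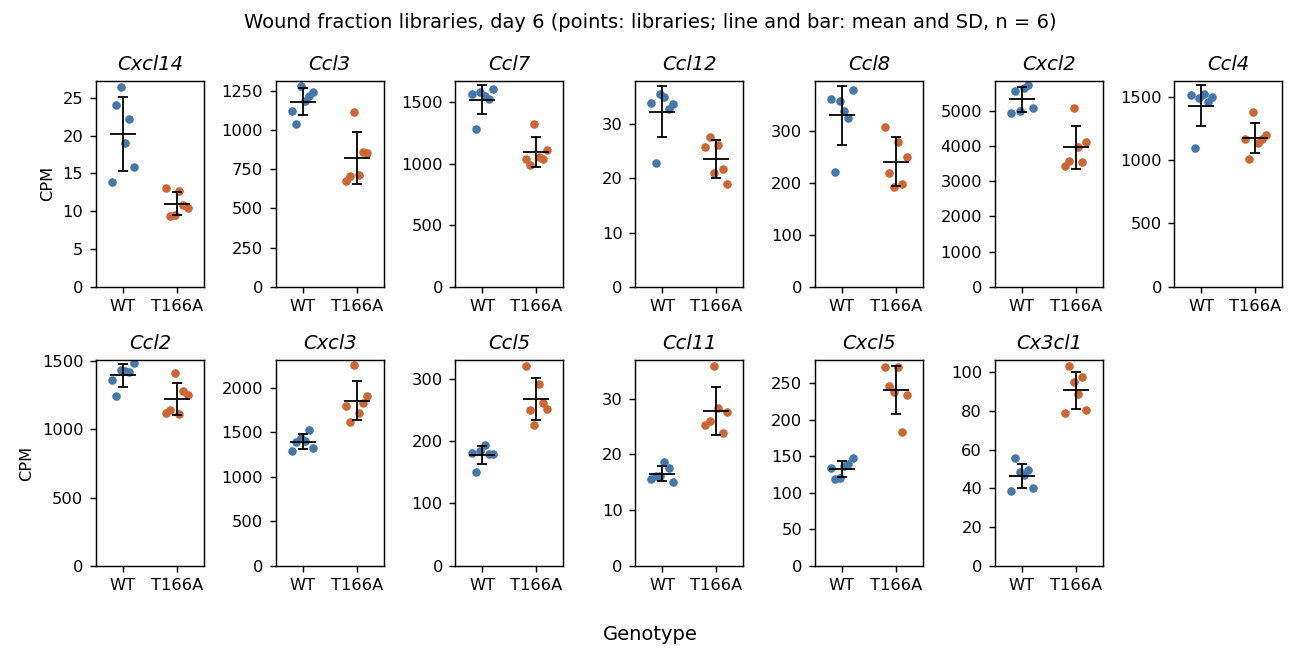
CPM in each wound library (points) with mean and SD (line and bar, n = 6 per genotype) for the 13 chemokine ligand genes that passed in the wound fraction with a mean of at least 5 CPM in a genotype, from the largest fall (Cxcl14) to the largest rise (Cx3cl1). Each axis starts at 0. The T166A points of Cx3cl1, from 78.9 to 103 CPM, lie above all WT points, which reach 55.5 CPM.

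Markers of other cell types differed between the genotypes in the same wound libraries, where 12.7% of all genes tested were called higher and 13.2% lower. Macrophage markers were lower, with 5 of 7 called and a summed level of 8366 to 10060 CPM in WT against 7618 to 8374 CPM in T166A. Their most abundant gene, Lyz2, fell from 5251 to 4407 CPM. Neutrophil markers were lower for 3 of 5 tested, with sums of 239 to 282 CPM against 158 to 248 CPM, led by Csf3r. Higher were 4 of 5 endothelial markers (832 to 1190 CPM against 1167 to 1668 CPM, led by Pecam1), 3 of 4 pericyte and smooth muscle markers (332.5 to 509 CPM against 606 to 872 CPM, led by Rgs5) and 3 of 4 adipocyte markers, among them Adipoq, from 0.883 to 10.2 CPM. Fabp4, the most abundant adipocyte marker, did not pass (499 and 532 CPM). Of mast cell markers 3 of 5 were lower, led by Cma1, of lymphatic markers 1 of 4 was lower, led by Pdpn, and of eosinophil markers 1 of 3 was higher, led by Prg2. Dendritic and Langerhans cell markers had 1 of 6 higher and 1 lower (led by Epcam), and 0 were called of 6 fibroblast (Col3a1), 6 keratinocyte (Krt14), 3 platelet (Ppbp) and 1 T and NK cell marker (Gzmb).

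The chemokine calls were recomputed with such a score as a covariate, the mean log2 CPM of a marker list in each library. With the macrophage score, 5 genes were higher and 1 lower, and Ccl2 (log2 fold change -0.10, edgeR adjusted p = 0.707), Ccl7 (-0.30, 0.156), Ccl12 (-0.27, 0.567), Ccl3 (-0.46, 0.36), Cxcl2 (-0.51, 0.113) and Cxcl3 (0.34, 0.158) no longer passed, while Ccl4 (0.02) and Ccl8 (0.03) turned to about 0. Cx3cl1 (0.50, edgeR adjusted p = 0.00592), Ccl5 (0.76, 0.0016), Cxcl5 (1.01, 0.00221), Ccl11 (0.70, 0.0184) and Cxcl14 (-1.43, 0.000154) still passed. With the endothelial score, 4 were higher and 6 lower, and Cx3cl1 still passed with a log2 fold change of 0.59 (edgeR adjusted p = 0.000239). With the neutrophil score 5 were higher and 4 lower, and with the adipocyte score 0 were higher and 4 lower (Ccl2, Ccl3, Ccl4 and Ccl7). The share of all genes called with each score was not computed. A loss of calls here therefore cannot be read as particular to chemokine genes. Summed macrophage markers of the genotypes met only between 8366 and 8374 CPM, and Adipoq ranged from 0.377 to 1.42 CPM in WT and from 6.87 to 13.9 CPM in T166A without overlap. These marker levels went largely with genotype, so that score and genotype may hardly be told apart with the macrophage and adipocyte scores. Summed neutrophil and endothelial markers overlapped between genotypes, but the scores themselves were not compared. With these scores too, score and genotype may be hard to tell apart. The part of cell mixture in the chemokine values was not tested otherwise.

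Receptor genes of the same system were called for 8 of 19 tested in the wound fraction, 3 higher and 5 lower. Over all genes tested, 25.9% were called, and 45.7% of those that averaged at least 100 CPM. Ackr1, an atypical receptor of venular endothelium that takes up many chemokines, rose from 73.4 to 186 CPM (log2 fold change 1.26, SE 0.12, edgeR adjusted p = 6.57e-06). Ackr3, the scavenger of Cxcl12, rose by 0.59 and Ccr7, which guides cells to lymph nodes, by 0.55. Ccr1, the receptor of Ccl3, Ccl6 and Ccl9, fell from 362 to 290 CPM (log2 fold change -0.41, SE 0.05, edgeR adjusted p = 3.73e-06). Ccr2 (-0.38), Ccrl2 (-0.38), Xcr1 (-0.46) and Cx3cr1, the receptor of Cx3cl1 (-0.54, from 3.39 to 2.48 CPM), also fell. The most abundant receptor transcript was Ccrl2, at 424 CPM in WT.

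Of 20 tested genes for cytokines and factors that induce or limit chemokine transcription, 12 were lower and 1 was higher. The shares over all genes tested were 13.2% lower and 12.7% higher. Tnf, a cytokine that induces many chemokines, fell from 724 to 402 CPM (log2 fold change -0.94, SE 0.06, edgeR adjusted p = 1.25e-10). The NF-kB subunit genes Nfkb1 (-0.32), Nfkb2 (-0.31), Rel (-0.35), Rela (-0.19) and Relb (-0.24) all fell. So did the feedback genes Tnfaip3 (-0.37), the most abundant of the list at 2453 CPM in WT, and Zfp36 (-0.51), and also Nfkbiz (-0.33), Fos (-0.55), Jun (-0.16) and Stat6 (-0.23). Il6 was the 1 that rose (0.35, edgeR adjusted p = 0.0377). Among those that did not pass were Il1a, Il1b, Nfkbia, Irf1, Irf5 and Ifnb1. Of 8 protease genes that trim or shed chemokines, 1 was higher and 3 were lower, beside the same shares of all genes. Adam10, a sheddase of Cx3cl1 and Cxcl16, rose (0.23), and Adam17 (-0.16), Mmp8 (-0.98) and Mmp12 (-0.57) fell. Mmp14, the most abundant, did not pass.

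In BMDM, 0 of 25 tested chemokine ligand genes passed by edgeR, against 0.0685% of all 13139 genes tested. At an unadjusted p under 0.05 there were 6 of 25, against 12.8% of all genes, and DESeq2 and limma-voom each called 1, against 3.04% and 1.35%. That gene was Ccl2 in both. It was at 30.2, 27.6 and 24.1 CPM in WT replicates 1 to 3 and at 9.58, 12.6 and 12.3 CPM in T166A replicates 1 to 3, so that every T166A library was below every WT library. The log2 fold change was -1.28 (SE 0.17), and the adjusted p of 0.0556 lay just above the threshold in edgeR, with a range over its alternatives of 3.53e-08 to 0.48. The difference was -1.35 in batch B1 and -0.94 in batch B2 on a log2 scale with 0.5 CPM added.

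Ccl7 and Cxcl14 had the next smallest p among these genes. Ccl7 was at 6.96, 4.64 and 5.44 CPM in WT, against 2.90, 3.16 and 3.88 CPM in T166A (log2 fold change -0.81, SE 0.27, edgeR adjusted p = 0.297). Cxcl14 was at 3.73, 3.30 and 3.17 CPM in WT, against 1.47, 2.43 and 0.958 CPM in T166A (-1.16, SE 0.40, edgeR adjusted p = 0.302). Neither overlapped between genotypes, and neither passed. In all, 4 of 25 genes, with Ppbp as the fourth, had every T166A library below every WT library, against 5.85% of all genes tested. The top genes Ccl9, Ccl6, Cxcl16 and Pf4 did not pass (edgeR adjusted p = 0.314, 0.643, 0.39 and 0.323).

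In BMDM, log2 fold changes moved with transcript length across genes, which are not independent replicates (Spearman 0.41), with a median of -0.20 for transcripts of up to 1 kb and 0.35 for those over 6 kb. Of the 25 chemokine transcripts, 11 were of up to 1 kb. With the length trend of each library removed, Ccl2 passed at a log2 fold change of -1.11 (edgeR adjusted p = 0.0413), where 0.152% of all genes passed. In the wound fraction this correlation was 0.05.

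The CXCR2 ligands Cxcl1, Cxcl2, Cxcl3 and Cxcl5 were high in a single BMDM library, while Ppbp was not (27.4 CPM there and 34.1 CPM in WT replicate 2). Cxcl3 was at 94.1 CPM in WT replicate 1 and at most 3.24 CPM in the other 5 libraries. Cxcl2 was at 81.7 CPM there and at most 5.44 CPM elsewhere, and Cxcl1 was at 30.7 CPM and at most 2.70 CPM. Cxcl5 followed with 8.39 CPM against at most 0.835 CPM. Ccl3 was at 72.3 CPM in the same library, and at 32.4 and 29.9 CPM in WT replicates 2 and 3 and 25.6, 25.6 and 30.8 CPM in T166A. WT replicate 1 also held 30.03 CPM of the cytokine gene Il1a and 39.2 CPM of Il1b, against at most 2.70 and 6.76 CPM in the others. The means of these genes in WT BMDM thus depend on this library. Without it, the log2 fold change of Ccl3 was -0.23 in place of -0.70.

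**Figure D5:**
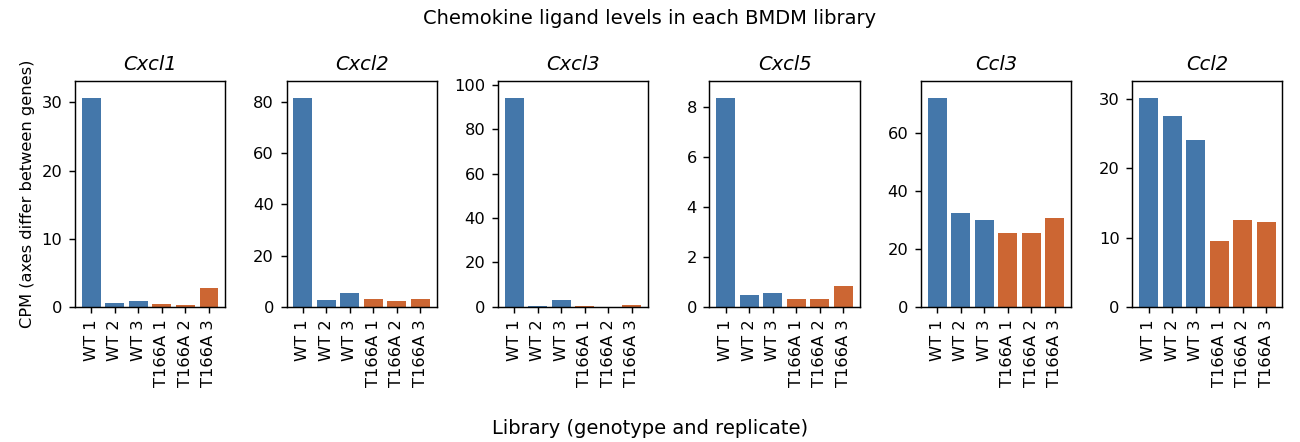
CPM of the CXCR2 ligands Cxcl1, Cxcl2, Cxcl3 and Cxcl5, of Ccl3 and of Ccl2 in each BMDM library (bars, 1 per library, with a separate axis from 0 for each gene). WT replicate 1 stands above the other 5 libraries for the first 5 genes, whereas all 3 WT libraries of Ccl2, at 24.1 to 30.2 CPM, are above the T166A libraries.

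Receptor, inducer and protease genes gave 0 calls in BMDM, of 17, 18 and 8 tested, against 0.0685% of all genes tested. The most abundant inducer and protease genes were Irf5 at 315 ± 47.1 CPM and Mmp12 at 1335 ± 443 CPM in WT.

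Whether the genotype effect differed between sources was tested in a fit over all 18 libraries. Of 32 chemokine genes tested, 3 had a higher and 1 a lower effect in the wound fraction, which is 12.5% against 14.3% of all 16586 genes (6.16% higher and 8.13% lower). These counts depended on the BMDM libraries used. They were 8 and 3 (32.4% called) without either replicate 3. The batch term then takes up the replicate 3 that remains, so that batch B1 alone gives the BMDM effect. Without T166A replicate 2 the counts were 1 and 1 (5.88%). The share of all genes called in these refits was not computed, and 14.3% belongs to the fit with all libraries. Over all genes the median absolute log2 difference was 0.36 with all libraries and 0.43 without either replicate 3. The shift in called share therefore cannot be read as particular to chemokine genes. Ccl2 had the smallest p: its log2 fold change was -1.28 in BMDM and -0.28 in the wound fraction, a difference of 1.03 (SE 0.15, edgeR adjusted p = 0.000164). It passed under all 24 alternatives, including the difference of the separate fits (adjusted p = 0.0258). Length trend removal, limma-voom and a replicate block were not run for this difference and are not among the 24. Ccl8 differed by -1.18 (SE 0.35, edgeR adjusted p = 0.0354). Its BMDM libraries were at 5.56, 2.93 and 9.28 CPM in WT, against 10.7, 6.81 and 9.80 CPM in T166A, which overlap, and the difference of the separate fits did not pass (adjusted p = 0.101). Ccl8 went from a log2 fold change of 0.69 in BMDM, not called, to a called fall in the wound fraction.

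Cxcl3 and Cxcl5 differed by 6.21 (SE 1.68, edgeR adjusted p = 0.0268) and 3.38 (SE 0.98, edgeR adjusted p = 0.0359). Both values include the high BMDM library. Without WT replicate 1 the difference of Cxcl3 was 1.83 (edgeR adjusted p = 0.00593) and that of Cxcl5 0.85 (0.111), and neither passed as a difference of the separate fits (adjusted p = 0.406 and 0.256). By that comparison 1 of 25 genes, Ccl2, passed, against 2.46% of 12692 genes.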

How the data were processed

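Per the labels, 18 mouse libraries were sequenced. The deposited values were raw counts per RefSeq transcript. Per the submitters' processing notes, FastQC 0.12.1, cutadapt 4.4, HISAT2 2.2.1 and featureCounts were used with the mm10 build, and the handling of strand and of multiple matches was not given in the sources used here. From these, the transcript with the highest summed CPM stood for its gene. For Cxcl16, Ccl25 and Ccl27a this was a transcript that RefSeq lists as non-coding. Of 45895 BMDM and 45843 wound rows, 117 in each matched no gene (0.514 and 0.187% of the counts of all rows) and were left out. In R 4.3.3, edgeR 4.0.16 was run with TMM, filterByExpr (minimum count 10, total 15), robust quasi-likelihood F tests and Benjamini-Hochberg adjustment over all genes at 0.05, with batch in BMDM. Wound folds include a TMM shift of -0.09, and CPM does not. Alternatives used DESeq2 1.42.0, limma 3.58.1 (voom), RLE size factors, other filters, summed transcripts, length trend removal, a replicate block, marker scores and single libraries left out. The endothelial and macrophage scores, library totals, separate fits, the source counts by filter and the leave-outs for expression were added after seeing the data. Same-numbered BMDM libraries of both genotypes deviated together (correlations 0.392, 0.105 and 0.361), and wound libraries did not in general (-0.03 to 0.13). Batch was left in these BMDM values, and replicate 3 was from batch B2 in both genotypes. Batch and pairing by number therefore cannot be told apart in them. The genes, lists, tests and the rule for naming were chosen with earlier results of these data known. Values per BMDM library, or the lowest, median and highest wound library, were given for genes called with a mean of at least 5 CPM, the 5 most abundant per source, and the 3 with the smallest p in BMDM and for the difference between sources. Fits were tested on simulated data.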

Additional observations from a re-analysis of the deposited data

Results flagged for a closer look

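In the wound fraction, 10 of 60 gene and genotype groups of 6 libraries had a library far from the other 5, where chance flags about 1 in 20 groups. WT replicate 2 was low for Ccl4 (1097 CPM against 1457 to 1523), Ccl5 (150.5 against 179.5 to 193), Ccl7 (1287 against 1531 to 1606), Ccl8 (222 against 325.5 to 379) and Ccl12 (22.8 against 32.8 to 35.6). T166A replicate 3 was high for Ccl7 (1327 CPM against 994 to 1113), Ccl11 (35.9 against 23.8 to 28.3) and Cxcl1 (2202 against 1815 to 1944). T166A replicate 5 was high for Ccl24 (7.86 CPM against 5.80 to 6.16) and low for Cxcl10 (559 against 591 to 606). Genes of 1 library are not independent, and the cause was not tested. Without WT replicate 2, 7 chemokine genes were higher and 8 lower in T166A, and without T166A replicate 3, 7 were higher and 9 lower.

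The genotype effect of 4 genes differed between the wound fraction and BMDM in the fit over all libraries. The log2 difference was 1.03 for Ccl2, -1.18 for Ccl8, 6.21 for Cxcl3 and 3.38 for Cxcl5 (edgeR adjusted p = 0.000164, 0.0354, 0.0268 and 0.0359).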

How the results depend on the processing

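In BMDM the count of chemokine genes called lower went from 0 to 1 (Ccl2) with DESeq2, limma-voom, RLE size factors, no filter, and the length trend removed, alone or with a replicate block. With the replicate block alone it stayed 0, and in the wound fraction, where numbers did not pair libraries, the block gave 7 higher and 9 lower. Marker scores moved the wound counts of 7 higher and 8 lower most: 0 and 4 with the adipocyte score, 4 higher with the endothelial score, 1 lower with the macrophage score and 4 lower with the neutrophil score. Reversed were Ccl28 (-0.79), Cxcl11 (-0.19) and Cxcl14 (0.12) with the adipocyte score, Ccl4 (0.02) and Ccl8 (0.03) with the macrophage score, and Cxcl1 with the endothelial (-0.02) and macrophage score (-0.02). The difference between sources gave 1 higher and 0 lower from separate fits, and 2 lower with DESeq2 or 0 with no filter. Leaving out single libraries gave 0 to 0 in both directions in BMDM, 7 to 7 higher and 7 to 9 lower in the wound fraction, 1 to 8 higher and 0 to 3 lower for the difference between sources, and 16 to 26 higher and 2 to 2 lower between sources in WT. The extremes were 1 higher without BMDM T166A replicate 2, 8 higher and 3 lower without either BMDM replicate 3, 0 lower without BMDM T166A replicate 1, BMDM WT replicate 2, wound T166A replicate 2 or wound WT replicate 1, 3 or 6, 2 lower without BMDM WT replicate 1 or wound WT replicate 2, and 16 higher without BMDM WT replicate 3. Without either BMDM replicate 3 the batch term takes up the other, so that batch B1 alone gives the BMDM genotype effect. Without BMDM WT replicate 3 the batch difference comes from the T166A libraries alone. The cause of the other shifts was not tested. For the marker scores and for single libraries left out, the share of all genes called was not computed. Of single-gene alternatives, 617 kept direction and side of the threshold, 56 lost and 7 gained a call, and 7 reversed. In BMDM the largest SEs were those of Cxcl1 (3.22) and Cxcl3 (3.14), which were high in WT replicate 1.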
